A study of Mus musculus with 22 samples.

Results

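The potassium channel genes were the subset of the mouse molar transcriptome whose symbols consist of Kcn, further letters and a final number. The rule was applied to gene symbols alone and found 88 genes among the 28711 rows of the deposited normalised table, all protein-coding. The set holds 29 voltage-gated pore-forming subunits, 10 voltage-gated modifier subunits, 13 inward rectifiers, 12 tandem-pore-domain channels, 8 calcium- or sodium-activated channels and 16 auxiliary subunits. Bulk RNA sequencing had been performed on whole first mandibular molars of Tgfbr2 G357W/+ mice (Het) and of wild-type Tgfbr2 +/+ littermates (WT), at postnatal day 11 (P11) and postnatal day 5 (P5). There were 5 P11 Het, 5 P11 WT, 6 P5 Het and 6 P5 WT libraries. The mutation sits in 1 copy of the TGF-beta receptor gene, is present in every tissue of the Het animals and is a mouse model of Loeys-Dietz syndrome. No other allele or agent is named for any group.

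Potassium channels let potassium ions cross cell membranes down their electrochemical gradient and so set the resting potential and shape electrical signals. In epithelia they also recycle potassium that the sodium pump brings in and sustain the driving force for the transport of other ions. Ameloblasts, the epithelial cells that build enamel, first secrete an enamel matrix and later, in the maturation stage, move large amounts of calcium, bicarbonate and acid across the cell layer. P5 and P11 molars fall on either side of that change.

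Library totals ranged from 32904047 to 45343814 counts. The labels of P5 Het 6 conflict: title and library name give P5, tissue and treatment give P11. It was kept at P5, with each comparison rerun in its absence. In P5 Het 6 the secretory ameloblast markers summed to 162063 CPM and the maturation ameloblast markers to 1308 CPM. Both sums lie outside the P11 Het ranges, 18275 to 44731 and 59285 to 83511 CPM. The number of mice in the series text, 5 Het and 8 WT, is below the 22 libraries, so libraries may share an animal and p-values may then be too small. P-values measure the spread between libraries, which may be technical. Tgfbr2 itself averaged 105 ± 6.43 CPM in P11 Het and 112 ± 4.76 in P11 WT (SD, n = 5 each), and 186 ± 18 in P5 Het and 180 ± 13.5 in P5 WT (SD, n = 6 each). Since the allele is a point mutation, the level of Tgfbr2 is no check of the genotype labels. The 4 secretory ameloblast markers summed to between 18275 and 44731 CPM at P11 Het and 17338 and 26074 at P11 WT, against 122287 to 162063 at P5 Het and 152808 to 168352 at P5 WT. P11 WT 4 and 5, P11 Het 2 and P5 Het 4 and 5 stood apart by higher muscle or oral mucosa markers, and results were also computed without these 5 libraries.

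Promoter windows are shown for the most abundant member, Kcnk1, for Kcnn4, which had a large rise between the ages, and for Kcnj2 and Kcnip2, which had large falls. Capitals mark the motifs searched. They are from RefSeq on GRCm38.p6 and run from 250 bases before to 50 bases after the annotated start, 5′ to 3′ on the gene's strand. Kcnn4 lies at chr7:24370013-24370312 on the plus strand, Kcnk1 at chr8:125994852-125995151 on the plus strand, Kcnj2 at chr11:111065914-111066213 on the plus strand, and Kcnip2 at chr19:45816014-45816313 on the minus strand.
Kcnn4: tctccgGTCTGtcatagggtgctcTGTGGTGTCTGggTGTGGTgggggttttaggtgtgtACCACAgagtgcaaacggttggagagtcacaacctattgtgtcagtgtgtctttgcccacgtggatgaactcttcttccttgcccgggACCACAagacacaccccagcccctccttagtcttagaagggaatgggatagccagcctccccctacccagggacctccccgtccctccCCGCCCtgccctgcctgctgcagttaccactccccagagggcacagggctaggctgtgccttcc
Kcnk1: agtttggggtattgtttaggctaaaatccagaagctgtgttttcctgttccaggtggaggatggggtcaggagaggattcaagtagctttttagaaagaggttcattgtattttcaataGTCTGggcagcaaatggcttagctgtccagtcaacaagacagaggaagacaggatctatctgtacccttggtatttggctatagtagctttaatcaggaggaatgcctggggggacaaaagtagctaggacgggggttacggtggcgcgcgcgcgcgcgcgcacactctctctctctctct
Kcnj2: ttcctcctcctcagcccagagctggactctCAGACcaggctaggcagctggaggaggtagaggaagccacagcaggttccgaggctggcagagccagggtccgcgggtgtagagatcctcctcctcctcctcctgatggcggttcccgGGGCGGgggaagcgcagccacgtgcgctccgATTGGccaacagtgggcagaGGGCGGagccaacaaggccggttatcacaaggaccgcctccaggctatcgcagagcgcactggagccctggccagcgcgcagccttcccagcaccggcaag
Kcnip2: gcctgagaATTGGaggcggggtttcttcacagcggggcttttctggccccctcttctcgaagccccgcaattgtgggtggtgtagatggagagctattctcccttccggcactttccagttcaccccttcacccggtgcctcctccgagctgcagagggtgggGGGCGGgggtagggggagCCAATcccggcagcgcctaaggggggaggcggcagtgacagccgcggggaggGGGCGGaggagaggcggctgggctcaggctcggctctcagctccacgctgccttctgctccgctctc

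The motifs searched on both strands were the TATA box (TATAAA), the CCAAT box (CCAAT), the GC box (GGGCGG), a RUNX motif (TGTGGT), an AP-1 motif (TGANTCA) and a SMAD motif (GTCTG). Adjoining or overlapping motifs run together in the capitals. The Kcnn4 window held 4 RUNX motifs, 2 SMAD motifs and 1 GC box among 6 CpG dinucleotides. The Kcnj2 and Kcnip2 windows held no RUNX motif. Both had 2 GC boxes and 18 CpG dinucleotides, with 1 CCAAT box in Kcnj2 and 2 in Kcnip2. Among members named for age, the RUNX motif was in 1 of 6 windows of those higher at P11 (16.7%), that of Kcnn4. It was in 0 of 8 windows of those lower at P11. Kcnk1 had 1 SMAD motif and none of the others. Of all 32851 RefSeq promoter windows, 16.8% held the RUNX motif, 49.6% the SMAD motif, 35.7% the GC box, 37.4% the CCAAT box, 13.6% the TATA box and 7.81% the AP-1 motif. Windows were found for 63 of the 88 members, 88 windows in all. In these the shares were 9.09% for RUNX, 55.7% for SMAD, 48.9% for the GC box, 30.7% for CCAAT, 5.68% for TATA and 4.55% for AP-1. A match is a string of letters and not a measured binding site.

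A small number of channels made up most of the potassium channel transcript pool at both ages. Levels were compared between genes as CPM (library-size-scaled counts, with TMM factors from the trimmed mean of M values) per kilobase (kb) of annotated exon. The summed level of all 88 members was 164 ± 9.15 CPM per kb in P11 Het and 149 ± 6.39 in P5 Het, and 151 ± 7.33 in P11 WT and 154 ± 10.8 in P5 WT (SD, n = 5 at P11 and 6 at P5). The 4 most abundant members held 71% of the summed level in P11 Het, 71% in P11 WT, 68.5% in P5 Het and 71% in P5 WT. Members with a mean of at least 1 CPM numbered 36 in P11 Het, 39 in P11 WT, 40 in P5 Het and 40 in P5 WT. The 24 members that did not pass the filter on low counts reached at most 1.01 CPM in any library, in Kcnv1. They were not tested.

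**Figure D1:**
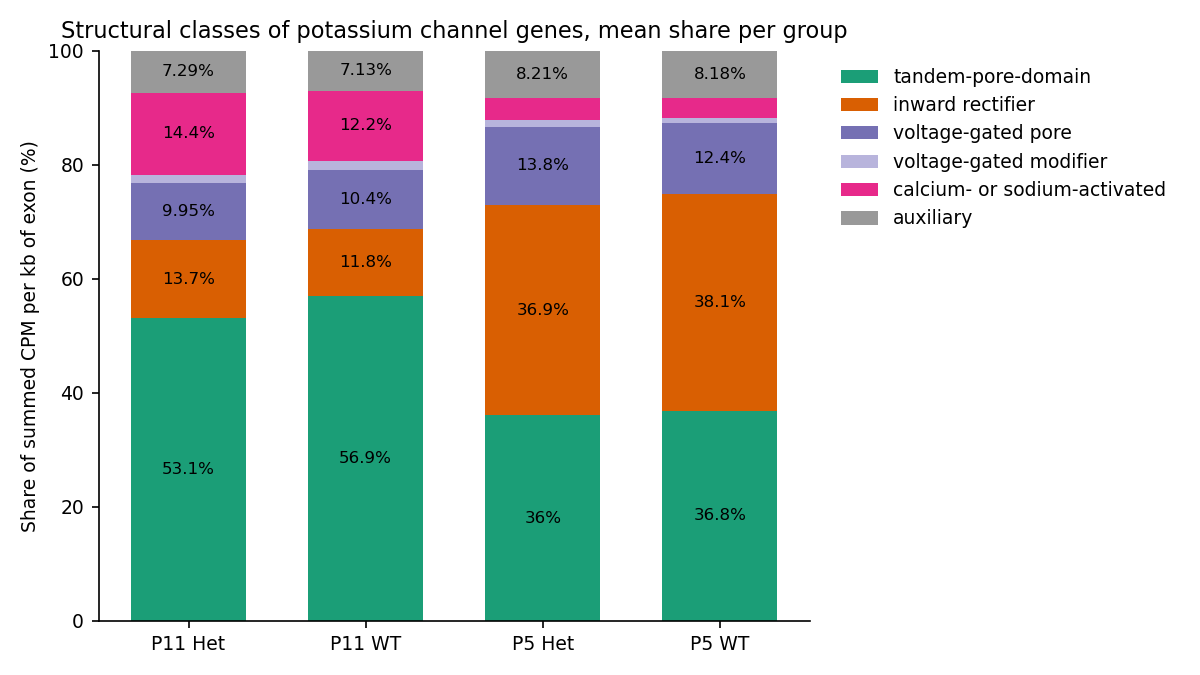
Mean share of each structural class in the summed potassium channel level (CPM per kb of exon, % of all 88 members) in the 4 groups, as stacked bars from 0. Inward rectifiers held 13.7% in P11 Het and 11.8% in P11 WT, against 36.9% in P5 Het and 38.1% in P5 WT, while tandem-pore-domain and calcium- or sodium-activated channels held more at P11.

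The makeup of the pool differed between the ages in both genotypes. Tandem-pore-domain channels, which pass a background potassium leak, held 53.1% of it in P11 Het and 36% in P5 Het, and 56.9% in P11 WT and 36.8% in P5 WT. Inward rectifiers, which hold the membrane near the potassium equilibrium potential, held 13.7% in P11 Het and 36.9% in P5 Het, and 11.8% in P11 WT and 38.1% in P5 WT. Channels gated by intracellular calcium or sodium held 14.4% in P11 Het and 3.88% in P5 Het, and 12.2% in P11 WT and 3.53% in P5 WT. Voltage-gated pore subunits held 9.95% in P11 Het and 13.8% in P5 Het, and 10.4% in P11 WT and 12.4% in P5 WT. Auxiliary subunits held 7.29% in P11 Het and 8.21% in P5 Het, and 7.13% in P11 WT and 8.18% in P5 WT. These shares are descriptions, and no test was run on them. In bulk samples, fewer cells of a type and less RNA per cell cannot be told apart.

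A few channels changed rank between the ages. Kcnk1, which encodes the weakly rectifying leak channel TWIK, ranked 1 in all 4 groups, at 76.6 ± 8.87 CPM per kb in P11 Het and 75.8 ± 8.65 in P11 WT, against 41.6 ± 2.73 in P5 Het and 45.1 ± 3.18 in P5 WT. Kcnn4, the intermediate-conductance calcium-activated channel, ranked 2 at P11 in both genotypes, but 10 in P5 Het and 16 in P5 WT. Kcnj2, a strong inward rectifier, ranked 2 at P5 in both genotypes, but 3 in P11 Het and 4 in P11 WT. Kcnj8, the pore of an ATP-sensitive channel, ranked 7 at P11 and 3 at P5 in both genotypes. Kcnh1, an ether-à-go-go voltage-gated channel, ranked 4 in P11 Het and 3 in P11 WT, and 4 at P5 in both genotypes. In P11 WT, Kcnh1 at 8.14 ± 1.64 CPM per kb and Kcnj2 at 7.97 ± 2.25 differed by less than their spread. Kcnk2, a mechanosensitive leak channel, and Kcnj15, a further inward rectifier, ranked 5 and 6 in every group.

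Most of the tested members differed between the ages, in both directions. Of the 88 members 64 passed the filter on low counts and were tested. Calls rest on the quasi-likelihood test of edgeR and a Benjamini-Hochberg threshold of 0.05 on the adjusted p across the 21510 genes in the fit. In Het molars 22 members (34.4%) were higher at P11 than at P5, against 24.4% of all genes tested, and 16 (25%) were lower, against 23.4% of all genes. In WT molars 24 members (37.5%) were higher, against 24.8% of all genes, and 18 (28.1%) were lower, against 24.7% of all genes. Shares of lower members were near the background in both genotypes. The median log2 fold change over the tested members was 0.03 in Het and 0.11 in WT, against -0.01 over all genes in each. Without P5 Het 6 the Het counts were 21 higher and 15 lower. Library-name prefixes differ between the ages (1 and 2 at P11, 3 to 5 at P5) and their meaning is not given. Prefix and age thus cannot be told apart. At P5, prefix 5 holds only P5 Het 5 and 6, so prefix is also in part tied to genotype. The P11 WT libraries of prefix 2 are P11 WT 4 and 5, which had higher muscle or oral mucosa markers. In P11 WT, prefix and these markers cannot be told apart. Without the 5 libraries with such markers, P11 WT holds prefix 1 alone.

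The Het and WT age comparisons contrast separate libraries, but both come from the same fit, with shared normalization and a shared estimate of the spread. They are therefore not independent tests. They called 35 members in the same direction, 20 higher (background 19.7% of all genes, 31.2% of members) and 15 lower (background 18.2%, 23.4% of members). In either direction, Het calls numbered 38 (59.4% of members, background 47.8% of all genes) and WT calls 42 (65.6%, background 49.4%). The 35 shared calls were 92.1% of the Het calls and 83.3% of the WT calls. Over all genes, 8150 calls were shared in the same direction, 79.2% of the Het calls and 76.6% of the WT calls. The P11 libraries did not overlap the P5 libraries, higher or lower, for 13 and 14 members in Het (background 15.9% and 14.4%) and for 17 and 14 in WT (background 16.6% and 15.5%). The members called in both genotypes comprised 5 higher and 4 lower voltage-gated pore subunits, 2 higher and 0 lower modifier subunits, 2 higher and 2 lower inward rectifiers, 5 higher and 3 lower tandem-pore-domain channels, 3 higher and 2 lower calcium- or sodium-activated channels, and 3 higher and 4 lower auxiliary subunits. Kcne3, Kcna6 and Kcnf1 were called in Het alone. Kcnab3, Kcnmb1, Kcnab1, Kcnu1, Kcna4, Kcng2 and Kcnb2 were called in WT alone, and 19 members in neither. No member's age effect was called different between the genotypes (interaction, below), so a call in 1 genotype does not show a difference.

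**Figure D2:**
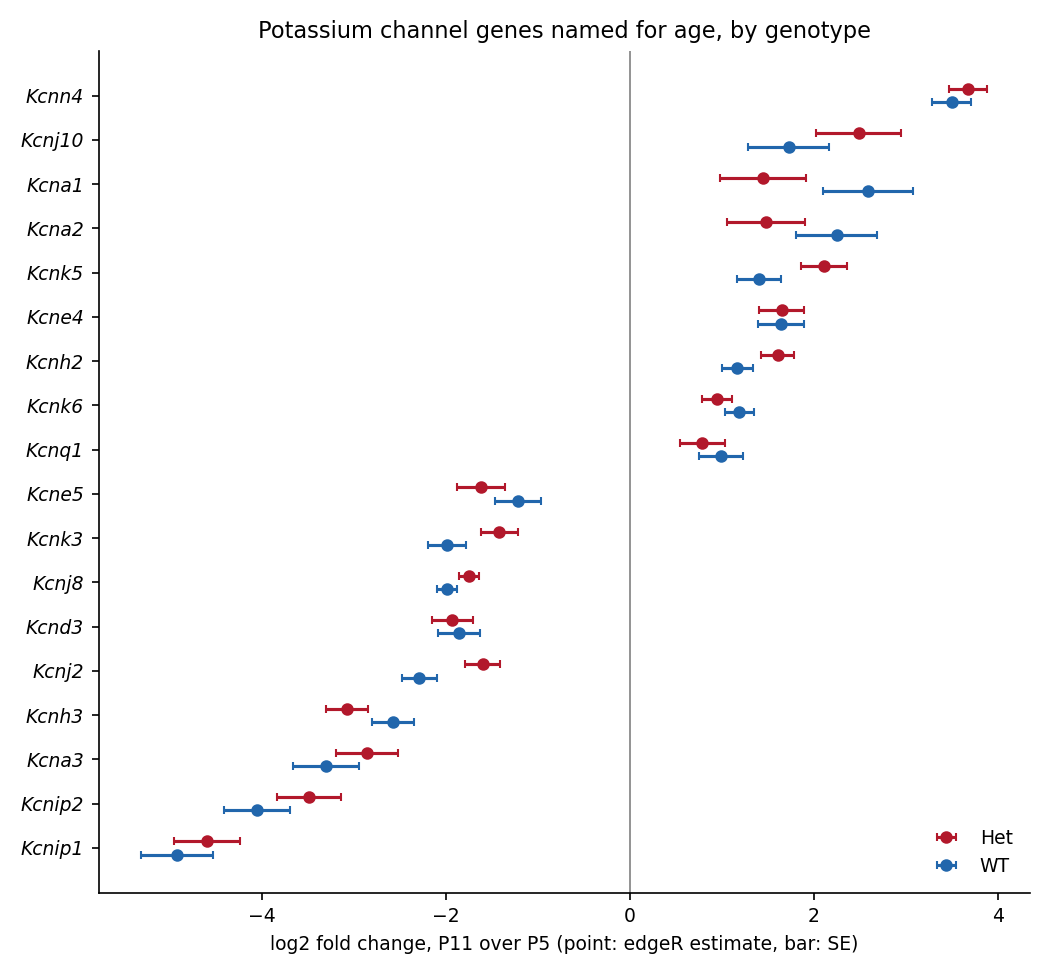
Log2 fold change, P11 over P5, for 9 higher and 9 lower members with large mean changes among those called in both genotypes and averaging at least 1 CPM at the higher age. Points are edgeR estimates and bars SE, Het above WT for each gene. Kcnn4 lies at 3.68 in Het and 3.50 in WT, and Kcnip1 at -4.60 in Het and -4.93 in WT.

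Among calcium-activated channels, Kcnn4 (chr7:24370263-24386690) had the largest rise of the named members. It read 95.6, 110, 77.8, 102 and 130 CPM in the P11 Het libraries, against a lowest of 5.66, a median of 7.6 and a highest of 10.7 CPM in P5 Het. P11 WT libraries read 63.1, 79.9, 109, 51.4 and 81.9 CPM, against a lowest of 4.27, a median of 6.67 and a highest of 9.14 CPM in P5 WT. Every P11 library lay above every P5 library in both genotypes. The level was 12.8-fold higher at P11 in Het (log2 fold change 3.68 ± 0.21 SE, adjusted p 5.37e-13) and 11.3-fold higher in WT (3.50 ± 0.21, adjusted p 1.11e-12). Within the P11 libraries of prefix 1 alone the log2 fold change was 3.56 in Het and 3.63 in WT, and within prefix 2 alone 3.86 in Het and 3.31 in WT. Kcnn4 is also known as the calcium-activated channel of red blood cells. All 7 tested erythroid markers were called higher at P11 in both genotypes, with sums of 177 to 319 CPM in P11 Het and 70.3 to 95.2 in P5 Het, and 203 to 417 in P11 WT and 53.8 to 98.7 in P5 WT. The part of erythroid cells in the Kcnn4 values was not tested.

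The small-conductance relatives of Kcnn4 moved less and not all one way. Kcnn1 averaged 4.31 ± 0.849 CPM in P11 Het and 2.51 ± 0.426 in P5 Het, and 4.76 ± 0.232 in P11 WT and 2.53 ± 0.615 in P5 WT, a called rise in both genotypes. Kcnn3 also rose, with log2 fold changes of 0.66 ± 0.20 in Het (adjusted p 0.00866) and 1.01 ± 0.20 in WT (adjusted p 0.000231). Kcnn2 fell, by 0.92 on the log2 scale in Het and by 0.88 in WT. With the P11 libraries of prefix 2 alone, Kcnn2 was not called in either genotype (adjusted p 0.0934 in Het and 0.104 in WT), nor Kcnn3 in WT (0.0624). The sodium-activated channel Kcnt2 fell to 9.9 ± 0.711 CPM in P11 Het, against 17.7 ± 2.65 in P5 Het, and to 8.25 ± 1.96 in P11 WT, against 17.7 ± 2.37 in P5 WT. Kcnma1, the large-conductance channel that opens to calcium and voltage, was not called, with log2 fold changes of -0.24 ± 0.13 in Het (adjusted p 0.141) and 0.08 ± 0.13 in WT (adjusted p 0.639).

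**Figure D3:**
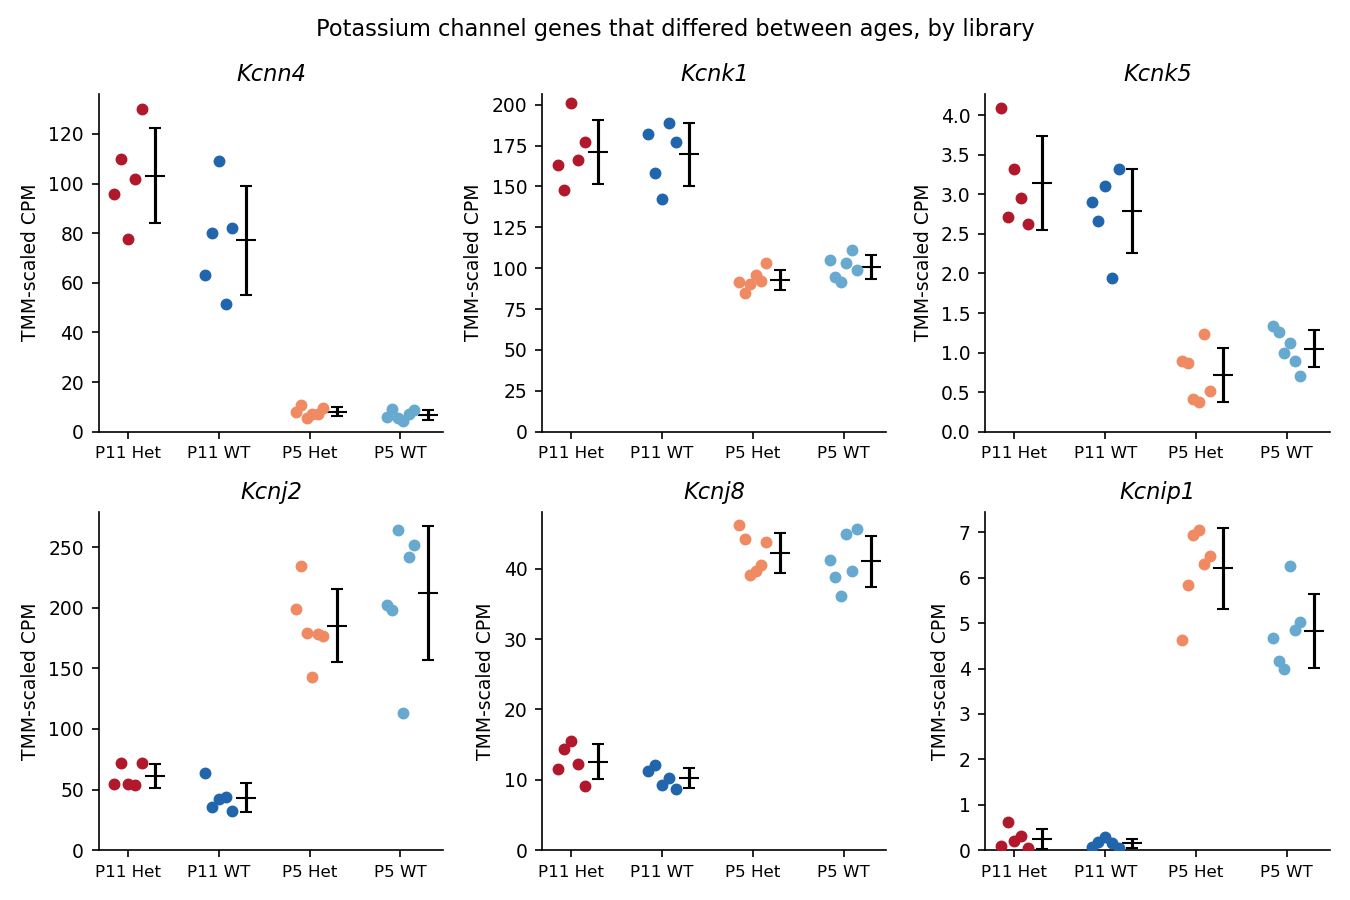
TMM-scaled CPM of 6 members in each library (points), with the group mean and SD (bar) beside them and each axis starting at 0. Kcnn4, Kcnk1 and Kcnk5 are higher in every P11 library than in any P5 library of the same genotype, and Kcnj2, Kcnj8 and Kcnip1 are lower.

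Tandem-pore-domain channels included the most abundant member and both directions of change. Kcnk1 read 163, 148, 201, 166 and 177 CPM in P11 Het, against a lowest of 84.7, a median of 91.9 and a highest of 103 CPM in P5 Het. P11 WT libraries read 182, 158, 142, 189 and 177 CPM, against a lowest of 91.5, a median of 101 and a highest of 111 CPM in P5 WT. Neither genotype showed an overlap between the ages. Kcnk1 was 1.84-fold higher at P11 in Het (log2 fold change 0.88 ± 0.08, adjusted p 2.64e-09) and 1.68-fold higher in WT (0.75 ± 0.08, adjusted p 3.42e-08). Kcnk5, an acid-sensitive channel of transporting epithelia such as the kidney tubule, averaged 3.14 ± 0.598 CPM in P11 Het and 0.719 ± 0.341 in P5 Het, and 2.79 ± 0.531 in P11 WT and 1.05 ± 0.236 in P5 WT. That is a 4.33-fold rise in Het (adjusted p 1.97e-07) and a 2.65-fold rise in WT (adjusted p 4.05e-05). Kcnk6, a relative of Kcnk1, rose by log2 fold changes of 0.95 ± 0.16 in Het and 1.19 ± 0.16 in WT. Kcnk3, another acid-sensitive leak channel, fell 2.68-fold in Het (adjusted p 3.16e-06) and 3.97-fold in WT (adjusted p 2.44e-08). Kcnk2 was lower by a small margin, at 34.6 ± 2.65 CPM in P11 Het and 42.6 ± 5.48 in P5 Het, and 31.2 ± 5.19 in P11 WT and 38.4 ± 6.44 in P5 WT (adjusted p 0.0352 in Het and 0.0365 in WT). Its log2 fold change was -0.30 in each genotype, and the call was lost in 9 of 32 alternatives in Het and in 14 of 32 in WT, at -0.08 in Het and -0.10 in WT with marker scores as covariates. Leaving out any single one of P5 Het 1, 5 or 6 or P11 Het 4 or 5 ended the Het call, and any one of P5 WT 1, 2, 5 or 6, P5 Het 1 or 2, or P11 WT 4 or 5 the WT call.

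Kcnj2 and Kcnj8, the inward rectifiers with the highest levels at P5, were lower at P11. Kcnj2 read 54.2, 71.7, 54.6, 53.4 and 71.7 CPM in P11 Het, against a lowest of 143, a median of 178 and a highest of 234 CPM in P5 Het. P11 WT libraries read 63.4, 35.2, 42.3, 44.2 and 31.9 CPM, against a lowest of 113, a median of 222 and a highest of 264 CPM in P5 WT. All P11 libraries lay below all P5 libraries. The level fell 3.03-fold in Het (log2 fold change -1.60 ± 0.19, adjusted p 1.78e-07) and 4.88-fold in WT (-2.29 ± 0.19, adjusted p 6.86e-10). Kcnj8 averaged 12.6 ± 2.46 CPM in P11 Het and 42.3 ± 2.86 in P5 Het, and 10.3 ± 1.41 in P11 WT and 41.1 ± 3.63 in P5 WT. It fell 3.36-fold in Het (adjusted p 4.16e-12) and 3.98-fold in WT (adjusted p 4.67e-13). Abcc9, the sulfonylurea receptor that assembles with the Kcnj8 pore, was also lower, at 55.5 ± 6.24 CPM in P11 Het and 76.5 ± 4.91 in P5 Het, and 53.7 ± 3.3 in P11 WT and 66.6 ± 3.52 in P5 WT. Kcnj8 and Abcc9 are known from vascular mural cells. Of 8 mural cell markers, 7 were called higher at P11 in both genotypes, and Notch3 was called in neither. The list summed to between 8300 and 12277 CPM in P11 Het and 4266 and 5940 in P5 Het. In WT it summed to between 7043 and 9532 CPM at P11 and 3298 and 6005 at P5. Most of each sum is Rgs5. The part of mural cells in the Kcnj8 and Abcc9 values was not tested.

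Other inward rectifiers rose or were not called. Kcnj15 averaged 33.6 ± 4.79 CPM in P11 Het and 21.8 ± 2.94 in P5 Het, and 30.8 ± 3.91 in P11 WT and 18.9 ± 3.33 in P5 WT (adjusted p 0.000152 in Het and 3.68e-05 in WT). Kcnj10, the potassium-buffering channel of glia, averaged 1.43 ± 0.38 CPM in P11 Het and 0.251 ± 0.124 in P5 Het, and 1.4 ± 0.656 in P11 WT and 0.42 ± 0.331 in P5 WT. Its log2 fold change was 2.49 ± 0.46 in Het (adjusted p 9.22e-05) and 1.73 ± 0.44 in WT (adjusted p 0.00206). With the P11 libraries of prefix 2 alone the WT adjusted p was 0.135, at a log2 fold change of 1.19. Those WT libraries are P11 WT 4 and 5, which also had higher muscle or oral mucosa markers.

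Voltage-gated pore subunits split in direction within a family. In the shaker family, Kcna3, known from lymphocytes and other non-neural cells, read 0.906, 1.16, 0.841, 0.355 and 0.44 CPM in P11 Het, against 4.11 to 6 CPM with a median of 5.53 in P5 Het. In WT it read 0.773, 0.255, 1.01, 0.12 and 0.254 CPM at P11, against 4.19 to 6.59 CPM with a median of 4.47 at P5. Ages did not overlap, and the fall was 7.24-fold in Het (adjusted p 2.38e-07) and 9.94-fold in WT (adjusted p 4.63e-08). Its P11 level was higher with prefix 1 than with prefix 2, at means of 0.968 and 0.398 CPM in Het and 0.679 and 0.187 in WT. In WT the prefix 2 libraries are P11 WT 4 and 5, which also had higher muscle or oral mucosa markers. Kcna1 and Kcna2, the axonal channels clustered beside the nodes of myelinated fibres, rose at low levels. Kcna2 averaged 1.66 ± 0.805 CPM in P11 Het and 0.596 ± 0.241 in P5 Het, and 1.76 ± 0.419 in P11 WT and 0.37 ± 0.353 in P5 WT. Kcna1 had log2 fold changes of 1.45 ± 0.47 in Het (adjusted p 0.0141) and 2.59 ± 0.49 in WT (adjusted p 0.000118). Without the 5 libraries with higher muscle or mucosa markers, Kcna1 in Het had a log2 fold change of 1.22 ± 0.56 and an adjusted p of 0.088.

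Most tested nerve and Schwann cell markers rose beside Kcna1, Kcna2 and Kcnj10, but not all. Of 10 tested markers 7 were called higher and 2 lower at P11 in each genotype, the lower ones being S100b and Ncmap. Their sum ran from 60.4 to 86.3 CPM in P11 Het and from 38.7 to 46.3 in P5 Het, and from 64 to 79 in P11 WT and from 43.3 to 45.5 in P5 WT. The myelin gene Mbp averaged 25.7 ± 5.1 CPM in P11 Het and 6.63 ± 0.562 in P5 Het, and 26.5 ± 3.67 in P11 WT and 5.48 ± 0.966 in P5 WT. S100b averaged 6.56 ± 0.645 CPM in P11 Het and 13.1 ± 1.49 in P5 Het, and 5.7 ± 0.571 in P11 WT and 12.9 ± 1.1 in P5 WT. Ncmap averaged 3.39 ± 0.672 CPM in P11 Het and 7.03 ± 0.805 in P5 Het, and 3.79 ± 0.297 in P11 WT and 8.7 ± 0.72 in P5 WT. The listed genes Nefl, Nefm and Prph did not pass the filter on low counts. Neurofilament Nefl averaged 0.028 CPM in P11 Het and 0.109 in P5 Het. In WT it averaged 0.0457 CPM at P11 and 0.311 at P5, with a highest P5 WT library of 1.73. Nefm averaged 0.176 CPM in P11 Het and 0.0607 in P5 Het, and 0.151 in P11 WT and 0.0737 in P5 WT. Prph averaged 0.242 CPM in P11 Het and 0.0816 in P5 Het, and 0.185 in P11 WT and 0.087 in P5 WT. The part of these cells in the potassium channel values was not tested.

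Of the tested Kcnd and Kcnip members, Kcnd3 and its calcium-binding partners Kcnip1, Kcnip2 and Kcnip3 fell, while Kcnd1 and Kcnip4 were not called. Kcnd3, a pore subunit of the transient outward current, averaged 1.87 ± 0.666 CPM in P11 Het and 7.1 ± 1.26 in P5 Het, and 1.36 ± 0.366 in P11 WT and 4.92 ± 1.08 in P5 WT. It fell 3.8-fold in Het (adjusted p 1.18e-07) and 3.62-fold in WT (adjusted p 2.63e-07). Kcnip1 and Kcnip2 encode KChIP proteins, which bind Kcnd channels and raise their surface expression. Kcnip1 read 0.093, 0.611, 0.192, 0.308 and 0.0464 CPM in P11 Het, against 4.63 to 7.05 CPM with a median of 6.39 in P5 Het. P11 WT libraries read 0.0773, 0.178, 0.295, 0.168 and 0.0508 CPM, against 3.99 to 6.27 CPM with a median of 4.76 in P5 WT. The fall was 24.3-fold in Het (log2 fold change -4.60 ± 0.36, adjusted p 2.43e-10) and 30.6-fold in WT (log2 fold change -4.93 ± 0.39, adjusted p 2.09e-10). Kcnip2 averaged 0.407 ± 0.365 CPM in P11 Het and 4.67 ± 0.795 in P5 Het, and 0.34 ± 0.179 in P11 WT and 5.74 ± 0.992 in P5 WT, a fall of 11.3-fold in Het (adjusted p 1.44e-08) and 16.7-fold in WT (adjusted p 1.84e-09). Kcnip3, the auxiliary subunit with one of the highest levels per kb of exon, fell 1.48-fold in Het (adjusted p 0.000786) and 1.68-fold in WT (adjusted p 4.01e-05). Kcnd1 was at 8.22 ± 1.6 CPM in P11 Het and 7.84 ± 1.17 in P5 Het, and 6.79 ± 0.88 in P11 WT and 7.58 ± 1.11 in P5 WT. Kcnip4 had log2 fold changes of -0.01 in Het and -0.05 in WT.

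Ether-à-go-go channels also went separate ways. Kcnh3 averaged 0.758 ± 0.261 CPM in P11 Het and 6.44 ± 1.05 in P5 Het, and 0.743 ± 0.234 in P11 WT and 4.45 ± 0.994 in P5 WT, a fall of 8.44-fold in Het and 5.98-fold in WT. Its exons overlap those of Mcrs1 on the opposite strand, and reads of the pair cannot be told apart in these unstranded libraries. Mcrs1 averaged 21.1 ± 0.911 CPM in P11 Het and 21.7 ± 1.51 in P5 Het and was not called in either genotype. Kcnh2, the cardiac repolarisation channel, rose 3.05-fold in Het (adjusted p 6.54e-08) and 2.25-fold in WT (adjusted p 5.22e-06). Kcnh1, the most abundant voltage-gated member, averaged 61 ± 9.86 CPM in P11 Het and 72.2 ± 5.16 in P5 Het, and 59.7 ± 12 in P11 WT and 68.7 ± 7.27 in P5 WT. It was not called, with an adjusted p of 0.0809 in Het and 0.147 in WT. Without P11 Het 3 the Het value was called lower (log2 fold change -0.32, adjusted p 0.0284), and without P11 WT 1 the WT value was (-0.31, adjusted p 0.0229). In all, 28 of the 88 members share exon bases with another annotated gene, 26 of them tested.

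Kcnq1, which carries a slowly activating current in heart, ear and epithelia, rose. It averaged 1.83 ± 0.121 CPM in P11 Het and 1.06 ± 0.426 in P5 Het, and 2.22 ± 0.59 in P11 WT and 1.12 ± 0.288 in P5 WT. Its log2 fold change in Het was 0.79 with an adjusted p of 0.00944, and in WT the adjusted p was 0.00146. Without the 5 libraries with higher muscle or mucosa markers the Het value was 0.64 ± 0.28 with an adjusted p of 0.0824. Kcnq1 shares exon bases with the antisense transcript Kcnq1ot1. Single-span beta subunits of the KCNE family, which tune voltage-gated pores, moved in both directions. Kcne4, which inhibits several pores, rose 3.15-fold in Het (adjusted p 4.64e-06) and 3.12-fold in WT (adjusted p 5.82e-06). Kcne5 fell 3.07-fold in Het and 2.32-fold in WT. Kcne3, an activator of Kcnq1 in epithelia, averaged 4.79 ± 1.93 CPM in P11 Het and 2.76 ± 0.42 in P5 Het (adjusted p 0.00331), and 3.56 ± 0.675 in P11 WT and 2.85 ± 0.617 in P5 WT (adjusted p 0.225). Without the 5 libraries with higher muscle or mucosa markers the Het log2 fold change was 0.56 ± 0.24 (adjusted p 0.0656).

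Other potassium-handling genes were read from a list of 37 pumps, cotransporters, regulators and related channels, 30 of them tested. Of these 30, 7 were called higher in both genotypes, against 19.7% of all genes, and 6 lower, against 18.2% of all genes. Atp1b3, a sodium pump beta subunit, averaged 448 ± 18.3 CPM in P11 Het and 164 ± 8.51 in P5 Het, and 418 ± 25.3 in P11 WT and 158 ± 11.1 in P5 WT. Another beta subunit, Atp1b2, went the other way, at 21.6 ± 3 CPM in P11 Het and 55.7 ± 3.26 in P5 Het, and 17.5 ± 1.29 in P11 WT and 50.3 ± 3.93 in P5 WT. The potassium-chloride cotransporter Slc12a4 fell, by 1.20 on the log2 scale in Het and by 1.71 in WT. Maturation ameloblast markers were called higher at P11 in 7 of 7 cases in both genotypes. The same held for osteoclast markers in 7 of 7 and tested oral keratinocyte markers in 9 of 9. Of 5 osteoblast and osteocyte markers, 4 were called higher in each genotype. Ibsp, Bglap and Spp1 were called in both, Ifitm5 in Het alone and Sost in WT alone. The part of these cell types in the potassium channel values was not tested.

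The Tgfbr2 genotype called no member at either age. By the edgeR test, 0 of 64 members were called in Het versus WT at P11 (background 0.0279% of all genes), 0 at P5 (background 0.26%) and 0 for the mean of both ages (background 0.172%). The genotype by age interaction called 0 as well (background 0.0139%). At an unadjusted p under 0.05 there were 5 members at P11 (7.81%, background 9.85%), 8 at P5 (12.5%, background 6.22%), 9 for the mean (14.1%, background 6.85%) and 4 for the interaction (6.25%, background 10.3%). The limma-voom test called 0 members in each of the 4 comparisons. DESeq2 called 1, Kcng2 at P5, and 0 in the other 3. Its background was 0.59% of all genes at P5 and 0.497% at P11, above the edgeR values. For the mean the DESeq2 background was 0.572%, and for the interaction 0.242%. In the fit with a prefix block, P5 Het 5 and 6 had no WT library of their prefix. This block called 0 members in each comparison, with a background of 0.395% at P11. The small P11 background of the main test thus depended on the model. Without P5 Het 6, edgeR again called 0 in all 4.

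**Figure D4:**
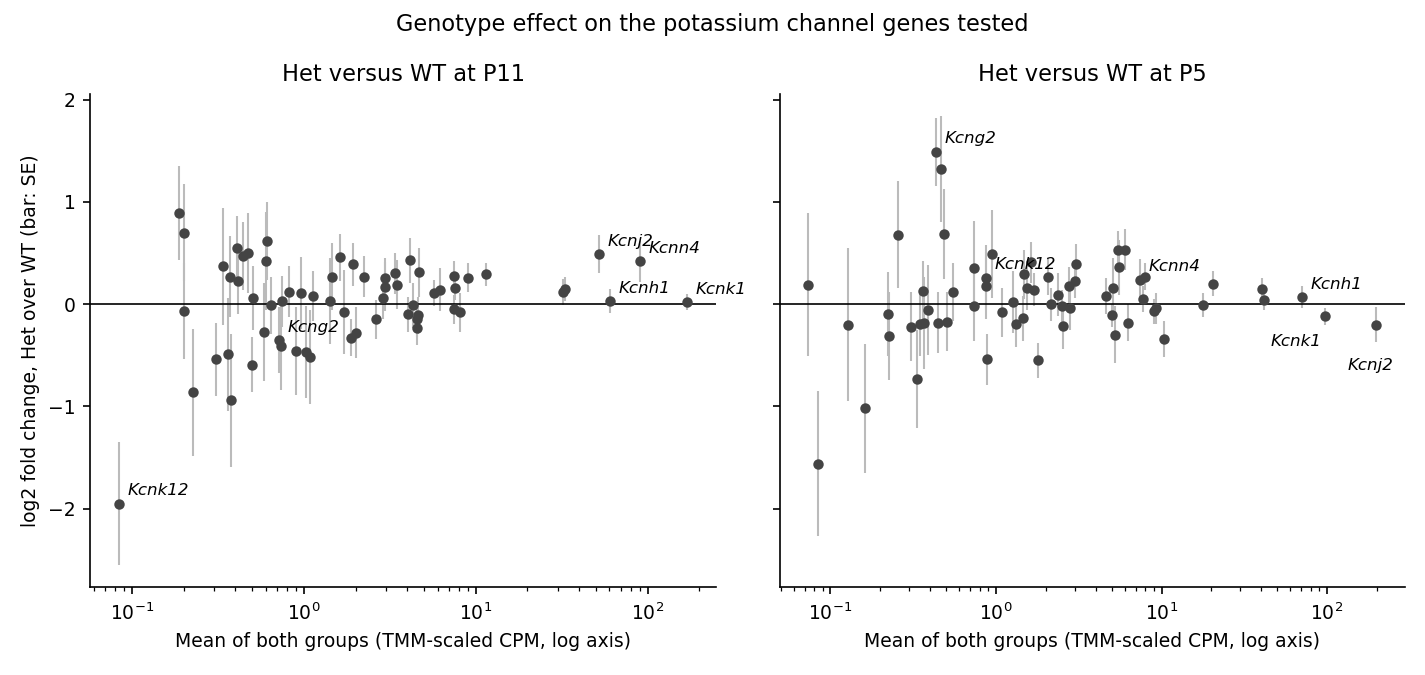
Log2 fold change, Het over WT, of the 64 tested members at P11 (left) and P5 (right) against the mean CPM of both groups on a log axis, with bars for SE. No point was called, and Kcnk1 and Kcnh1 lie close to 0, Kcnk1 at 0.02 at P11 and -0.12 at P5, and Kcnh1 at 0.03 at P11 and 0.07 at P5.

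Intervals are given here for abundant members. They rest on the spread between libraries, are not adjusted across genes, and may be too narrow if libraries share an animal. Kcnk1 had a log2 fold change, Het over WT, of 0.02 at P11 (95% interval -0.16 to 0.19) and -0.12 at P5 (-0.27 to 0.04). For Kcnh1 the values were 0.03 at P11 (-0.21 to 0.28) and 0.07 at P5 (-0.15 to 0.30). Kcnn4 averaged 103 ± 19.3 CPM in P11 Het and 77.1 ± 21.8 in P11 WT, with overlapping libraries, a log2 fold change of 0.42 (0.02 to 0.83) and an adjusted p of 0.489. Kcnj2 averaged 61.1 ± 9.66 CPM in P11 Het and 43.4 ± 12.2 in P11 WT (log2 fold change 0.49, 0.10 to 0.89, adjusted p 0.396), and 185 ± 30.2 in P5 Het and 212 ± 55.3 in P5 WT (-0.20, -0.55 to 0.16). Its interaction term was 0.69 ± 0.26, with an adjusted p of 0.425. Kcnj8 in P11 molars had a log2 fold change of 0.29 ± 0.11 (adjusted p 0.408).

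**Figure D5:**
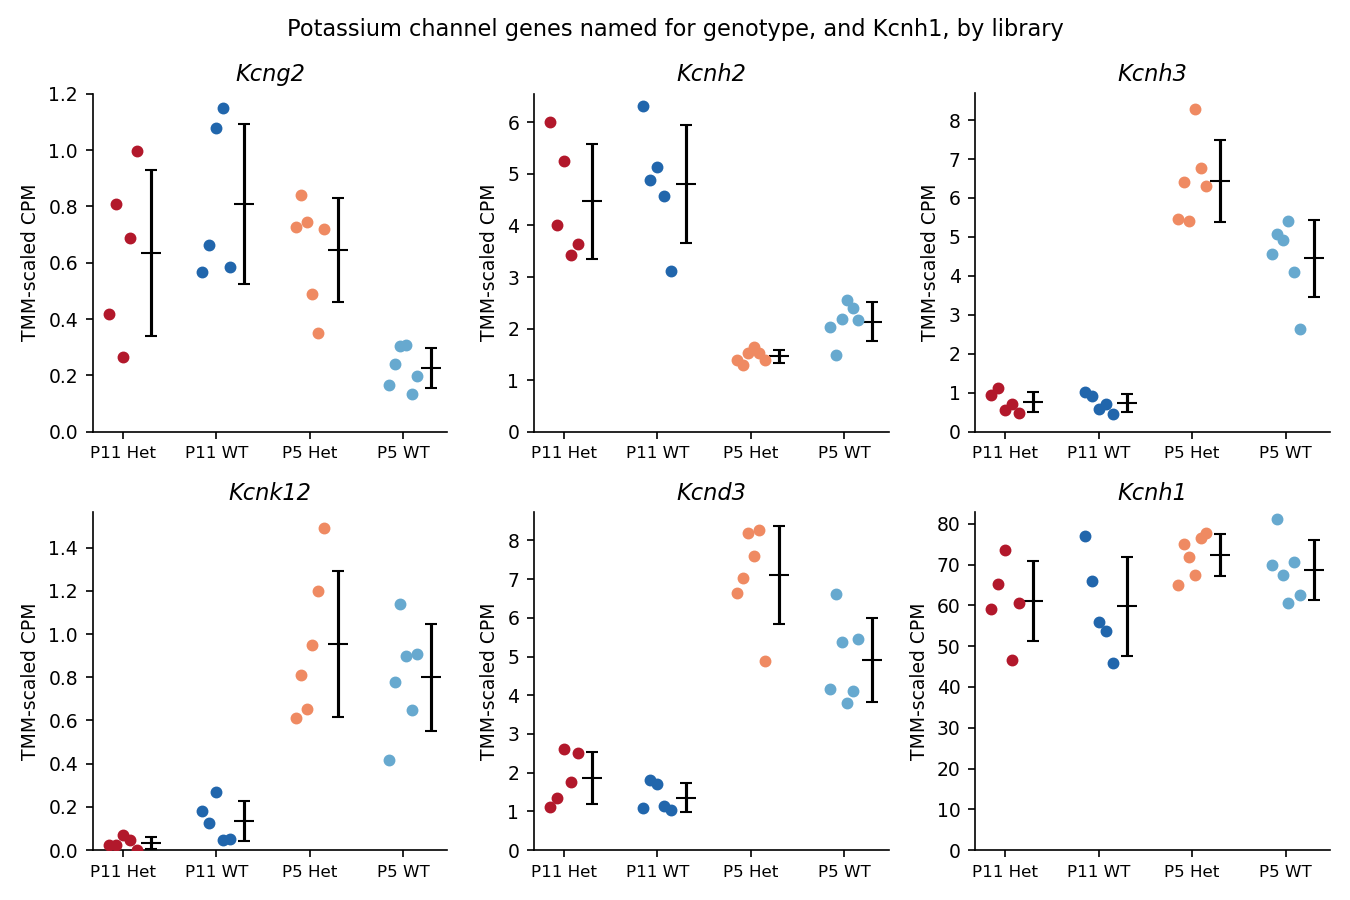
TMM-scaled CPM in each library (points), with the group mean and SD (bar), for 5 members named for their genotype p-values and for Kcnh1, with each axis starting at 0. Kcng2 in P5 Het lies between 0.349 and 0.84 CPM, above the 0.135 to 0.309 CPM of P5 WT, while the P11 groups overlap.

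The smallest genotype p belonged to Kcng2, a modifier subunit that forms no channel alone and pairs with pore-forming subunits. In P5 Het it had a lowest of 0.349, a median of 0.722 and a highest of 0.84 CPM, against a lowest of 0.135, a median of 0.22 and a highest of 0.309 CPM in P5 WT. The groups did not overlap, on 14 to 29 counts a library in P5 Het and 5 to 12 in P5 WT. Groups without overlap, Het higher, were found for 2 members at P5 (background 0.344% of all genes), the other being Kcnh3, at 5.42 to 8.29 CPM in P5 Het and 2.64 to 5.4 CPM in P5 WT. None was lower without overlap at P5 (background 0.507%), and at P11 none was higher (0.614%) or lower (0.748%). The log2 fold change of Kcng2 at P5 was 1.49 ± 0.33 with an adjusted p of 0.056, just outside the threshold. For Kcng2 the alternatives gave adjusted p-values from 0.00978 to 0.204. In P11 Het it read 0.418, 0.807, 0.264, 0.686 and 0.997 CPM, against 0.567, 0.662, 1.08, 1.15 and 0.584 CPM in P11 WT, and these groups overlapped. The log2 fold change at P11 was -0.35 ± 0.32, and the interaction term -1.84 ± 0.46 had an adjusted p of 0.246. Kcng2 shares exon bases with D330025C20Rik on the opposite strand.

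The other members named for genotype had larger adjusted p-values. Kcnh2 averaged 1.46 ± 0.121 CPM in P5 Het and 2.13 ± 0.372 in P5 WT (log2 fold change -0.55 ± 0.17, adjusted p 0.396). Kcnh3 averaged 6.44 ± 1.05 CPM in P5 Het and 4.45 ± 0.994 in P5 WT (0.53 ± 0.19, adjusted p 0.592). Kcnd3 had the smallest p for the mean of both ages, with a log2 fold change of 0.49 ± 0.15 and an adjusted p of 0.316. Kcnk12, a tandem-pore-domain member that gives no current by itself, was read from 0 to 3 counts a library in P11 Het and 2 to 11 in P11 WT (log2 fold change -1.95 ± 0.60, adjusted p 0.314). At 7 counts over the P11 Het group and 27 over the P11 WT group, that estimate depends on few reads.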

How the data were processed

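Whole first mandibular molars were profiled by bulk RNA sequencing of unstranded Nextera XT libraries with paired-end reads of 100 bases, per the labels' protocols. Per the submitters' processing notes, the tools were STAR 2.7.3a, DESeq2, limma and edgeR, and the build GRCm38. Read counter and annotation: not given in the sources used here. Deposited raw values are gene counts in whole numbers, for 55439 features, and 18 features that are not mouse genes (0.000109% to 0.000457% of a library) were left out. The deposited normalised signal is TMM-scaled CPM as the authors computed it, and it served for gene symbols and the membership rule.

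The tests used the raw counts with edgeR 4.0.16, limma 3.58.1 and DESeq2 1.42.0 in R 4.3.3. After filterByExpr (minimum count 10, minimum total 15) 21510 genes remained. The two-sided quasi-likelihood test modelled the 4 age-by-genotype groups in all 22 libraries (18 residual degrees of freedom, common dispersion 0.0381), with Benjamini-Hochberg adjustment over all genes. The SE is approximate, the log2 fold change over the root of F, and 95% intervals use the t distribution with the test's 23.2 degrees of freedom. The pipeline was tested on simulated counts. Without molecular identifiers, reads are not independent molecules. Coordinates and exon lengths are from GENCODE M21 on GRCm38, which matched all 88 members.

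Named members were the 10 highest and 10 lowest age changes among those called in both genotypes with a mean of at least 1 CPM, the 3 smallest p-values of each genotype comparison, and the 2 highest levels per kb in each class. Some genes chosen by this rule are not reported here. Relatives and partners of these were added for context. The members and lists were chosen with earlier results of these data known. Alternatives covered normalization, test, filter, left-out libraries, library-name prefix, marker scores and a replicate block. Replicate numbers were not taken as pairs.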

Additional observations from a re-analysis of the deposited data

Results flagged for a closer look

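In 8 of 104 group-by-gene checks over the 26 named members, the highest or lowest library stood farther from its neighbours than Dixon's test allows, where chance alone gives about 1 in 20. The P5 WT 6 library had 1.08 CPM of Kcna2, against 0.102 to 0.296 in the other P5 WT libraries, and 6.59 CPM of Kcna3, against 4.19 to 4.73. P11 Het 2, which also carried raised muscle or oral mucosa markers, had 1.05 CPM of Kcnip2, against 0.144 to 0.331 in the rest of its group, and 0.218 CPM of Kcne5, against 0.417 to 0.497. In P5 Het, library 3 had 4.11 CPM of Kcna3, against 5.3 to 6, and library 1 had 1.87 CPM of Kcne5, against 0.951 to 1.25. P11 Het 4 had 1.42 CPM of Kcnk3, against 2.21 to 2.48. P5 WT 2 had 22.2 CPM of Kcnt2, against 15.2 to 17.8.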

How the results depend on the processing

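Over the alternatives, the number of members higher at P11 ran from 17 to 24 in Het and 18 to 28 in WT, and of members lower from 14 to 18 in Het and 13 to 20 in WT. Age effects of 35 members, the named ones and relatives, were recomputed in both genotypes. Of these values 2169 kept their direction and side of the threshold, 36 lost the call, 4 gained it and 31 changed sign. The sign changes were all in values that had not been called: Kcnd1 in Het (log2 fold change 0.07, -0.07 with P11 prefix 1 alone, -0.01 with marker scores as covariates, -0.05 to 0.14 with each library left out), Kcng2 in Het (-0.02, 0.40 with prefix 2 alone, -0.24 to 0.18), Kcnip4 in Het (-0.01, 0.01 without the 5 libraries with raised markers, 0.10 with prefix 1 alone, -0.12 to 0.07) and in WT (-0.05, 0.05 with prefix 2 alone, -0.13 to 0.06), and Kcnma1 in WT (0.08, -0.05 with prefix 2 alone, -0.02 to 0.17). Of the lost calls 23 were in Kcnk2 and the other 13 in Kcna1, Kcnq1, Kcne3, Kcnn2, Kcnn3, Kcnj10 and Kcnk12. Kcna1 in Het (log2 fold change 1.45) was 1.22 with an adjusted p of 0.088 without the 5 libraries, 1.37 with 0.0614 for prefix 1 and 1.58 with 0.0725 for prefix 2. Kcnq1 in Het (0.79) was 0.64 with 0.0824 without the 5 libraries, 0.77 with 0.0843 for prefix 2 and 0.84 with 0.08 for marker scores. Kcne3 in Het was 0.65 with 0.126 for marker scores. With prefix 2 alone, Kcnn2 was -0.75 with 0.0934 in Het and -0.72 with 0.104 in WT, Kcnn3 in WT 0.65 with 0.0624, and Kcnj10 in WT (1.73) 1.19 with 0.135. In P11 WT, prefix 2 alone means P11 WT 4 and 5, both among the 5 libraries with raised markers. Kcnk12 in WT (-2.54) was -1.40 with 0.0943 for marker scores. Kcnh1 was called lower with prefix 2 alone, at -0.42 in Het and -0.45 in WT, and without P11 Het 3 or P11 WT 1. The number called higher in Het versus WT at P5 was 1, Kcng2, under DESeq2 and with only the 2 groups compared (adjusted p 0.00978 and 0.0343), and 0 to 1 when each library was left out, the 1 arising without P5 Het 5, P11 Het 3 or P11 Het 5 (0.0424, 0.0263 and 0.0452). The causes of these changes were not tested. All other genotype and interaction counts were 0 under every alternative run. The replicate block gave 0 members in each genotype comparison, and 22 higher and 15 lower in Het and 23 higher and 17 lower in WT for age. Same-numbered libraries correlated between -0.134 and 0.208, with 4 of 11 pairs over 0.1 and 8 of 22 libraries closest to their own number. The numbers were not taken as pairs, though these values do not exclude a pairing. A prefix block could not be fitted for age. The 24 members outside the filter and those under 1 CPM rest on few reads, and differences in them were not detectable at this depth unless large.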
